A study of Homo sapiens with 8 samples.

Results

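The comparison described here sets the change of each gene after overexpression of the long noncoding RNA PURPL against its change after knockdown of PURPL in BJ cells, an established line of human skin fibroblasts. For each gene 4 log2 ratios of FPKM plus 1 were formed, each a treated library over the control library of the same replicate number and deposited table. The difference of the changes was the mean of the 2 overexpression ratios minus the mean of the 2 knockdown ratios, and a gene was a member when it averaged at least 5 FPKM over the 8 libraries, its 2 overexpression ratios shared one sign and its 2 knockdown ratios shared the other. Of 59370 genes, 9453 reached that level, and 2026 of these (21.4%) lay in opposite directions. Those higher after overexpression and lower after knockdown, as PURPL itself was, numbered 1484 and are called PURPL-direction genes. The remaining 542 were lower after overexpression and higher after knockdown and are called counter-direction genes. FPKM are fragments scaled by transcript length and library size, so levels of different genes can be compared only roughly. The ratios still varied with transcript length and base composition, as described below.

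All 8 libraries came from the same line, in 4 groups of 2. OE-PURPL cells overexpressed PURPL and had PCDNA cells as their control, and in ASO-PURPL cells PURPL was lowered by an antisense oligonucleotide (ASO), a short strand that pairs with its target RNA, with ASO-NC cells as the control. The labels give no day, dose, vector details or oligonucleotide sequence and do not say whether replicates were separate cultures, so p-values reflect how these libraries scatter, and that scatter may be technical. A design text deposited with the series speaks of mouse cells found in no label, and it was set aside.

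PURPL is induced by the tumour suppressor p53, the transcription factor that halts the cell cycle after damage, and in cancer cells it has been described to hold p53 levels down by binding MYBBP1A, a nucleolar protein that otherwise stabilises p53. Long noncoding RNAs of this kind have drawn interest in fibroblasts because p53 and the CDK inhibitors control replicative senescence, the lasting arrest of aged cells. The comparison asks which genes differ in opposite ways when PURPL is raised and when it is lowered.

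The 2 arms stood apart in overall content. Genes at 1 FPKM or more numbered 13442 to 13514 in the overexpression-arm libraries and 13848 to 14598 in the knockdown-arm libraries, and mitochondrially encoded genes held 5.75% to 5.87% and 6.53% to 8.06% of the summed FPKM in the 2 arms. In all libraries the 10 highest genes held 6.26% to 9.27% of the summed FPKM, and read depth is unknown. All 20 fibroblast markers were above 1 FPKM in every library, with COL1A1, the main fibrillar collagen chain, at 414 to 989 FPKM, while the 16 immune markers summed to 3.61 to 13.7 FPKM and the 12 melanocyte and endothelial markers to 2.23 to 4.67 FPKM. The overexpression and knockdown arms differed in their starting level. CDKN2B, for example, stood at 3.88 and 3.12 FPKM in PCDNA and 12.5 and 8.87 FPKM in ASO-NC, and IFI30 at 277 and 264 FPKM in PCDNA and 59.8 and 59.5 FPKM in ASO-NC. Replicate 1 of each arm has a table of its own and replicate 2 of both arms shares another, and these may have been normalized separately, so group means, spreads and overlaps join levels from different tables, and only the ratios within a table were tested. Where the 2 changes are compared, this starting level cannot be told apart from the kind of perturbation.

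PURPL (chr5:27472292-27496401 on hg38, plus strand), annotated as an intergenic noncoding gene, differed as labelled in all 4 pairs. PURPL had 153 and 238 FPKM in OE-PURPL, against 5.42 and 5.73 FPKM in PCDNA, and 6.31 and 4.24 FPKM in ASO-PURPL, against 16.2 and 9.74 FPKM in ASO-NC. The groups overlapped in neither arm. Group means were 196 ± 60.2 and 5.58 ± 0.22 FPKM in OE-PURPL and PCDNA, and 5.27 ± 1.46 and 13 ± 4.55 FPKM in ASO-PURPL and ASO-NC (SD, n = 2 each). The overexpression excess was thus far larger than the knockdown loss, with ratios of 4.59 and 5.15 against -1.23 and -1.03 on the log2 scale. The difference of the changes was 6.0 (SE 0.218, adjusted p = 0.000887, limma), and within the replicate numbers it was 5.82 and 6.19. The knockdown taken alone missed the threshold (adjusted p = 0.281, limma). Because PURPL is the gene that was manipulated, this checks the labels rather than giving a result.

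**Figure D1:**
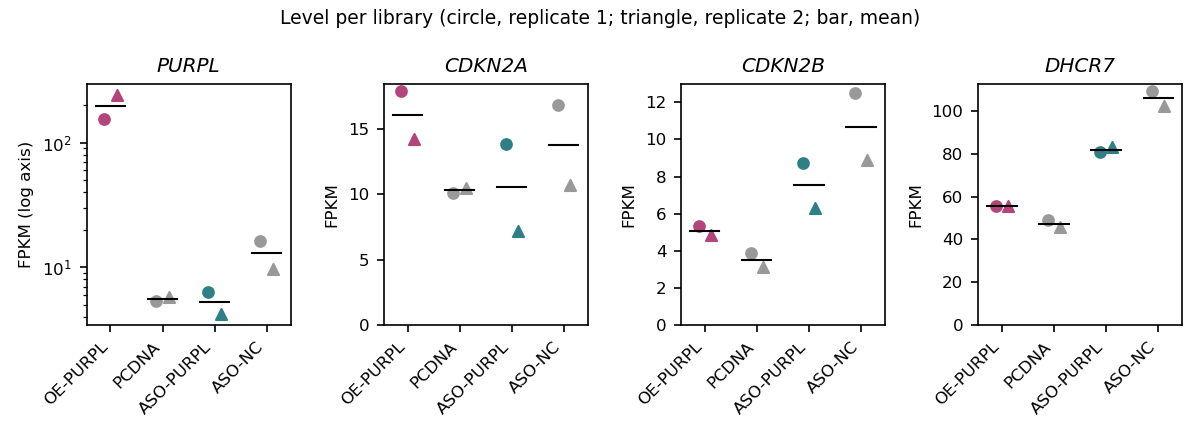
FPKM per library of PURPL (log axis), CDKN2A, CDKN2B and DHCR7 in the 4 groups, with replicate 1 as circles, replicate 2 as triangles and group means as bars. All 4 genes are higher in OE-PURPL than in PCDNA, and in ASO-PURPL each is lower than in the ASO-NC library of its own replicate number.

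Beyond PURPL, single genes seldom passed the test. With Benjamini-Hochberg adjustment over 9453 genes (limma, adjusted p under 0.05), the difference of the changes was called higher for 3 genes and lower for 0 genes (0.0317% of the genes tested), while 1495 genes (15.8%) had an unadjusted p under 0.05, 1068 of them higher (11.3%) and 427 lower (4.52%). The 3 were PURPL, CH17-13I23.3 and CTB-79E8.3, the first 2 of them among the 2026 genes in opposite directions. Among those 2026 genes 1052 had an unadjusted p under 0.05, but the sign rule and this test use the same ratios, so that count is not support. For overexpression alone 3 genes were called, and for knockdown alone 0 (limma), with 1734 (18.3%) and 739 genes (7.82%) at an unadjusted p under 0.05.

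The called genes apart from PURPL were listed at or near 0 in whole groups. CH17-13I23.3, which the annotation used here does not hold, had 24 and 12.5 FPKM in OE-PURPL, against 0.01 and 0 FPKM in PCDNA, and 0.01 and 0 FPKM in ASO-PURPL, against 7.98 and 11.9 FPKM in ASO-NC. Its difference was 7.61 on the log2 scale (SE 0.492, adjusted p = 0.0157, limma). CTB-79E8.3 had 28.4 and 24.7 FPKM in OE-PURPL, against 0.01 and 0 FPKM in PCDNA, and 40.04 and 91.8 FPKM in ASO-PURPL, against 16.3 and 22.9 FPKM in ASO-NC, so it was higher in both arms and is not in opposite directions. Its difference was 3.17 (SE 0.255, adjusted p = 0.0385, limma). An estimate at 0 in these files can be a failed one, which was not tested. Counting genes that stood at 0.01 FPKM or less on one side and at no less than 5 FPKM on the other gave 18 to 29 genes in the 4 treated and control pairs and 23 to 28 in the 4 pairs of replicates of the same group. These counts are over single pairs of libraries. Neither called gene switched between replicates of a group, so the counts do not bear on these 2 genes. CTB-79E8.3 was no longer called with quantile normalization or with centred ratios. Neither gene has an annotated length, so both dropped out when the length and GC trend was removed.

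The opposite pattern was more often in the direction of PURPL. PURPL-direction genes made up 15.7% of the genes tested and counter-direction genes 5.73%, against 4.29% higher in all 4 ratios, 10.4% lower in all 4 and 63.9% mixed. This split depended on the scaling: PURPL-direction genes were 73.2% of the genes in opposite directions as reported, 54.1% after quantile normalization (994 against 842 genes) and 49.4% with each ratio centred on its own median (924 against 948 genes). Most members held the pattern by small margins. The weakest of the 4 ratios was under 0.1 on the log2 scale in 1460 of 2026 genes (72.1%). At a weakest ratio of at least 0.1 there were 566 genes in opposite directions and 338 in the same direction in all 4 ratios, at 0.25 there were 52 and 45, and at 0.5 there were 5 and 6. Large opposite responses were therefore about as many as large responses in one shared direction.

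**Figure D2:**
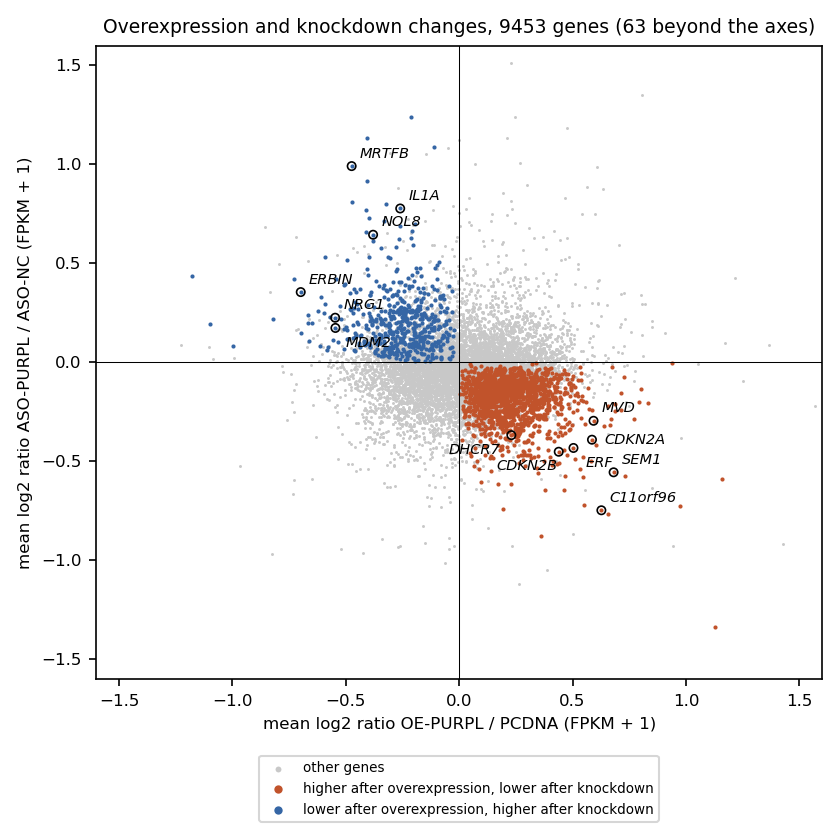
Mean log2 ratio after overexpression (horizontal) against mean log2 ratio after knockdown (vertical) for 9453 genes, of which 63 lie beyond the axes. PURPL-direction genes (orange, 1484) fill the lower right and counter-direction genes (blue, 542) the upper left, and most lie near 0.

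The replicates of the 2 arms agreed to different degrees across genes. The Spearman correlation over 9453 genes was 0.47 between the 2 overexpression ratios and 0.03 between the 2 knockdown ratios, as a description of points that share libraries, length and base composition. Between arms it was -0.22 and -0.21 for the knockdown ratio of replicate 2 against the overexpression ratios of replicates 1 and 2, and 0.04 and 0.14 for the knockdown ratio of replicate 1. With the trend of each ratio with transcript length and GC content removed (9051 genes), the value between the overexpression ratios was 0.25, that between the knockdown ratios 0.06, and those of the knockdown ratio of replicate 2 against the overexpression ratios -0.07 and -0.09. Near the level threshold, SCLT1 (5.03 FPKM on average) and RNF169 (5.01) lay just inside, and NHEJ1 (4.98) and PALB2 (4.97) just outside.

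The INK4 genes, which encode inhibitors of the cyclin D kinases CDK4 and CDK6 and are textbook markers of fibroblast senescence, held the PURPL-direction genes CDKN2A and CDKN2B. CDKN2A (chr9:21967753-21995301, minus strand) had 17.9 and 14.2 FPKM in OE-PURPL, against 10.1 and 10.5 FPKM in PCDNA, with no overlap. It had 13.9 and 7.17 FPKM in ASO-PURPL, against 16.9 and 10.7 FPKM in ASO-NC, where the groups overlapped and both libraries of replicate 1 were higher than those of replicate 2. Its mean levels were 16.1 ± 2.59 and 10.3 ± 0.226 FPKM in OE-PURPL and PCDNA, and 10.5 ± 4.74 and 13.8 ± 4.35 FPKM in ASO-PURPL and ASO-NC (SD, n = 2 each). The difference of the changes was 0.98 (SE 0.193, unadjusted p = 0.00209, adjusted p = 0.266, limma), and it was 1.02 and 0.93 within the replicate numbers. With the length and GC trend removed, that difference was 0.68, with an overexpression part of 0.30 and a knockdown part of -0.375. The gene encodes both p16INK4a and p14ARF from separate promoters, and gene-level FPKM do not separate these transcripts. In bulk RNA a shift in the share of cells with a transcript and a shift in its amount per cell cannot be told apart.

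CDKN2B (chr9:22002903-22009363, minus strand), its neighbour and close relative that encodes p15INK4b, had 5.31 and 4.86 FPKM in OE-PURPL, against 3.88 and 3.12 FPKM in PCDNA. The knockdown arm gave 8.74 and 6.32 FPKM in ASO-PURPL, against 12.5 and 8.87 FPKM in ASO-NC, with the higher ASO-PURPL library just under the lower ASO-NC library. The groups thus overlapped in neither arm, with group means of 5.08 ± 0.32 and 3.5 ± 0.538 FPKM in OE-PURPL and PCDNA, and 7.53 ± 1.71 and 10.7 ± 2.57 FPKM in ASO-PURPL and ASO-NC (SD, n = 2 each). Its difference was 0.89 (SE 0.219, adjusted p = 0.266, limma) and 0.84 and 0.94 within the replicate numbers. Neither INK4 gene passed the adjusted threshold. CDKN2D, which encodes p19INK4d, had ratios of 0.15 and 0.29 after overexpression and -0.22 and -0.08 after knockdown, while CDKN2C, which encodes p18INK4c, had ratios of 0.10 and 0.35 in the OE pairs and 0.17 and -0.07 in the ASO pairs and did not follow the pattern.

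The promoters of the 2 neighbouring INK4 genes are shown because both genes lay in the direction of PURPL with a mean ratio above 0.4 after overexpression. RefSeq windows run from 250 bases before to 50 bases after a transcript start on GRCh38.p14, the same assembly as hg38, and capitals mark GC boxes, the letters GGGCGG on either strand, to which SP1 family factors are known to bind. The CDKN2A window is that of the p16INK4a transcript, chr9:21974808-21975107, and the CDKN2B window is chr9:22009256-22009555, both on the minus strand.
CDKN2A: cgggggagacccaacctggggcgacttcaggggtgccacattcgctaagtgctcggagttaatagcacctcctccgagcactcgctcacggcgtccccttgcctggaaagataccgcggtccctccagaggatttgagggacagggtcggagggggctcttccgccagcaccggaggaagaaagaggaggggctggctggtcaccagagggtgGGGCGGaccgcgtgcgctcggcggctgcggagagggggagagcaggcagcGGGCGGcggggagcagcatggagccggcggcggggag
CDKN2B: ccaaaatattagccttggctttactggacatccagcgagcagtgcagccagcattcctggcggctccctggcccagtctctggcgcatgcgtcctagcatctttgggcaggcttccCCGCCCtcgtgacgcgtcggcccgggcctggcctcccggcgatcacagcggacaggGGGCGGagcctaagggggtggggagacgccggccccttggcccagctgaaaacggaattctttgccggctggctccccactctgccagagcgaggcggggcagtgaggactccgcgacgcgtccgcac
Each window holds 2 GC boxes, while a second RefSeq window of CDKN2A (chr9:21995275-21995574) holds 0. In CDKN2A they start 37 bases before and 13 bases after the transcript start, and in CDKN2B they start 134 and 78 bases before it. A GC box is common: 44.95% of all 35116 RefSeq windows hold one, as do 67.9% of the windows of genes tested, 73.1% of those of PURPL-direction genes and 59.8% of those of counter-direction genes. A match of letters is a description and not a binding site.

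Other regulators of arrest lay on both sides. Of 28 tested genes on the list of CDK inhibitors and senescence regulators, 8 were PURPL-direction and 2 counter-direction, with a median difference of 0.18, against 15.7%, 5.73% and 0.09 over all genes tested. After removal of the length and GC trend the list's median was 0.04. LMNB2, a nuclear lamin, had ratios of 0.35 and 0.12 after overexpression and -0.30 and -0.19 after knockdown. LMNA, the gene of lamins A and C, had log2 ratios of 0.36 and 0.05 after overexpression and -0.12 and -0.29 after knockdown. CDKN1A, the p53 target that encodes p21, had 0.26 and 0.11 after overexpression and 0.08 and -0.11 after knockdown, so its knockdown ratios disagreed in sign. BMI1, a Polycomb repressor of the INK4 locus, was a counter-direction gene with -0.04 and -0.35 after overexpression and 0.31 and 0.02 after knockdown.

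MDM2, the ubiquitin ligase that degrades p53 and is itself a p53 target, was the counter-direction member of that list with the larger weakest ratio. MDM2 had 29.6 and 30.1 FPKM in OE-PURPL, against 35.7 and 54.2 FPKM in PCDNA, and 66.4 and 49.5 FPKM in ASO-PURPL, against 55.6 and 46.2 FPKM in ASO-NC. Its OE-PURPL libraries lay below both PCDNA libraries, while the ASO groups overlapped, and the difference was -0.72 (SE 0.209, adjusted p = 0.266, limma). The p53 target list as a whole sat near the background, with 8 PURPL-direction and 2 counter-direction genes of 41 and a median difference of 0.02, which took the other sign under both scaling alternatives. SERTAD1, a transcriptional coregulator, had ratios of 0.44 and 0.45 in the OE pairs and -0.05 and -0.39 in the ASO pairs. TP53I3, an oxidoreductase, had log2 ratios of 0.33 and 0.13 after overexpression and -0.05 and -0.14 after knockdown. The other counter-direction p53 target was RRM2B, a ribonucleotide reductase subunit, with -0.26 and -0.26 after overexpression and 0.16 and 0.25 after knockdown.

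Of the RNA-binding and nucleolar proteins described as partners of PURPL, MYBBP1A had 24.2 and 25.9 FPKM in OE-PURPL, against 22.7 and 21.4 FPKM in PCDNA, and 22.4 and 24.6 FPKM in ASO-PURPL, against 24.4 and 27 FPKM in ASO-NC. Its groups did not overlap in overexpression and overlapped in knockdown, and its difference was 0.30 (SE 0.139, adjusted p = 0.342, limma). MATR3, a nuclear matrix protein, was a counter-direction gene with ratios of -0.20 and -0.20 in the OE pairs and 0.26 and 0.14 in the ASO pairs, although its name occurs in more than 1 row of the tables. ELAVL1, which encodes the RNA-stabilising protein HuR, had 0.05 and -0.22 after overexpression and 0.11 and -0.03 after knockdown.

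Cell cycle genes had a lower share of PURPL-direction genes than all genes tested and a counter-direction share near theirs. For G2/M and mitosis 2 of 38 tested genes were PURPL-direction (5.26%) and 3 counter-direction (7.9%), against 15.7% and 5.73% over all genes tested, with a median difference of -0.12 that kept its sign under both scaling alternatives. CCNB2, a mitotic cyclin, had log2 ratios of -0.24 and -0.08 after overexpression and 0.36 and 0.39 after knockdown. PLK1, the mitotic kinase, had ratios of -0.03 and -0.31 in the OE pairs and 0.23 and 0.39 in the ASO pairs, so that both genes ran counter to PURPL. CCNB2 had only 5.31 and 4.39 FPKM in ASO-PURPL and 3.92 and 3.11 FPKM in ASO-NC. CDK1, of mixed signs, had 1.69 and 3.47 FPKM in ASO-PURPL and 2.19 and 2.97 FPKM in ASO-NC. Such genes reached the level filter through the overexpression arm, and the part of their low knockdown-arm levels in the list's shares was not tested. CKS2, a small CDK-binding protein, ran with PURPL at log2 ratios of 0.15 and 0.35 after overexpression and -0.14 and -0.36 after knockdown. For G1/S and DNA replication there were 2 genes each way of 38 (5.26%), among them E2F1, the S-phase activator, with ratios of 0.29 and 0.47 in the OE pairs and -0.06 and -0.03 in the ASO pairs, and E2F7, a repressor of E2F targets, with log2 ratios of -0.20 and -0.11 after overexpression and 0.18 and 0.52 after knockdown. E2F1 was also low in the knockdown arm, with 4.5 and 4.25 FPKM in ASO-PURPL and 4.73 and 4.37 FPKM in ASO-NC. E2F7 stood at 48.7 and 63.5 FPKM in ASO-PURPL, against 42.8 and 43.9 FPKM in ASO-NC, with no overlap.

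Genes of sterol synthesis gave the highest median difference of the lists with at least 5 tested members, 0.28. Of 30 tested genes 11 were PURPL-direction (36.7%, against 15.7% over all genes tested) and 0 counter-direction (against 5.73%). The median stayed positive under both scaling alternatives and was 0.26 without the length and GC trend. No member passed the test (limma). The list's median ratios were 0.02 and 0.08 after overexpression and -0.20 and -0.20 after knockdown, so they lay farther from 0 in the knockdown pairs.

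DHCR7 (chr11:71428193-71452868, minus strand), the reductase of the last step of cholesterol synthesis, had 55.6 and 55.7 FPKM in OE-PURPL, against 49.1 and 45.6 FPKM in PCDNA. It had 80.7 and 83.1 FPKM in ASO-PURPL, against 109 and 103 FPKM in ASO-NC, and the groups overlapped in neither arm. Mean levels were 55.7 ± 0.0484 and 47.4 ± 2.51 FPKM in OE-PURPL and PCDNA, and 81.9 ± 1.71 and 106 ± 4.72 FPKM in ASO-PURPL and ASO-NC (SD, n = 2 each). The difference of the changes was 0.60 (SE 0.134, adjusted p = 0.266, limma) and 0.61 and 0.59 within the replicate numbers. With the length and GC trend removed, its overexpression part was 0.07 and its knockdown part -0.34.

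MVD, the decarboxylase that makes isopentenyl pyrophosphate, had the largest difference on the list. It had 33.4 and 31.1 FPKM in OE-PURPL, against 20.5 and 21.6 FPKM in PCDNA, and 76.2 and 57.6 FPKM in ASO-PURPL, against 100.2 and 66.3 FPKM in ASO-NC. Its OE-PURPL libraries lay above both PCDNA libraries, whereas the ASO groups overlapped, and the difference was 0.89 (SE 0.145, adjusted p = 0.266, limma). Of the 30 genes, 6 were lower in all 4 ratios, a pattern of 10.4% of all genes tested. TM7SF2, a sterol reductase, had ratios of 0.49 and 0.30 in the OE pairs and -0.28 and -0.42 in the ASO pairs. PMVK, the phosphomevalonate kinase, had log2 ratios of 0.58 and 0.43 after overexpression and -0.11 and -0.12 after knockdown. SREBF2, the master activator of sterol genes, had 0.02 and 0.07 after overexpression and -0.45 and -0.17 after knockdown. Its partner SCAP had ratios of 0.02 and 0.03 in the OE pairs and -0.20 and -0.28 in the ASO pairs. SQLE, the squalene epoxidase, was one of the 6 lower in all 4 ratios and had log2 ratios of -0.24 and -0.15 after overexpression and -0.24 and -0.16 after knockdown.

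The windows of DHCR7 and MVD are shown for the CCAAT box, the letters CCAAT on either strand, to which the factor NF-Y is known to bind. They are chr11:71448344-71448643 and chr16:88663042-88663341, both on the minus strand, and capitals mark the CCAAT boxes.
DHCR7: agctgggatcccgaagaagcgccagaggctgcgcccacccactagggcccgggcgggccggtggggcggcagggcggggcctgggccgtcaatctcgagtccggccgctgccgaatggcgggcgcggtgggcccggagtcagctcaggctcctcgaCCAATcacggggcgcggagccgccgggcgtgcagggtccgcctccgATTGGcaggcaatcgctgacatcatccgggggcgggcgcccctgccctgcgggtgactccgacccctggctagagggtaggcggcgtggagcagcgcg
MVD: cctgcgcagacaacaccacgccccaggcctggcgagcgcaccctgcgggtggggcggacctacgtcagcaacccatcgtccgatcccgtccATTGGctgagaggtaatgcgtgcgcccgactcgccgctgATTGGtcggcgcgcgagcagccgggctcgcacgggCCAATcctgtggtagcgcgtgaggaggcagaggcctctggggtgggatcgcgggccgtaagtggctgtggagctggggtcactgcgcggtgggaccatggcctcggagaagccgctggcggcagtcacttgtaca
The DHCR7 window holds 2 such boxes and the MVD window 3, and a second RefSeq window of DHCR7 (chr11:71448994-71449293) holds 0. Over all 35116 windows 34.6% hold at least 1, and over the 11 windows of the 10 matched PURPL-direction sterol genes 72.7% do, against 60.6% of the 33 windows of the 24 matched tested genes on the list. The windows were also searched for the sterol response element (SRE), a short stretch known from sterol gene promoters, and those of DHCR7 and MVD held 0. An SRE lay in 9.09% of the windows of PURPL-direction sterol genes, 3.03% of those of tested genes on the list and 1.13% of all windows. These are letter matches, not measured binding.

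The 24 protein-coding genes with the largest weakest ratio, 12 in each direction, had differences of 0.75 to 1.37 in size among PURPL-direction genes and 0.63 to 1.47 among counter-direction genes. Each had an adjusted p of 0.266 (limma), the value that the adjustment gives to a long run of genes. They are described by values only, since their choice rests on those values.

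Among the PURPL-direction genes SEM1, a small subunit of the proteasome lid, had 40.9 and 38.4 FPKM in OE-PURPL, against 23.7 and 25 FPKM in PCDNA, and 125 and 23.6 FPKM in ASO-PURPL, against 167 and 38.7 FPKM in ASO-NC. Its levels in the ASO arm were far apart between replicate numbers, but each ASO-PURPL library lay below its own ASO-NC library, and the difference was 1.24 (SE 0.155). C11orf96 had the largest difference of the 12, 1.37 (SE 0.239), with 14.2 and 15.6 FPKM in OE-PURPL, against 10.5 and 8.14 FPKM in PCDNA, and 3.04 and 3.47 FPKM in ASO-PURPL, against 6.26 and 6.01 FPKM in ASO-NC, and no overlap in either arm. ERF, an ETS-family repressor that ERK phosphorylation moves out of the nucleus, had 40.3 and 24.8 FPKM in OE-PURPL, against 26.2 and 18.4 FPKM in PCDNA, and 30.1 and 21 FPKM in ASO-PURPL, against 44.2 and 26.5 FPKM in ASO-NC. Its groups overlapped in knockdown and, for the lower OE-PURPL library and the higher PCDNA library, in overexpression.

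CHST11, a chondroitin sulfotransferase, had 18.6 and 15.7 FPKM in OE-PURPL, against 14.2 and 12.3 FPKM in PCDNA, and 9.5 and 12.6 FPKM in ASO-PURPL, against 13.6 and 16.7 FPKM in ASO-NC, with no overlap in either arm. NDST2, which modifies heparan sulfate, had ratios of 0.40 and 0.44 in the OE pairs and -0.39 and -0.33 in the ASO pairs. SLC46A1, the proton-coupled folate transporter, had log2 ratios of 0.40 and 0.46 after overexpression and -0.53 and -0.50 after knockdown. TECPR1, a protein of autophagosome and lysosome fusion, had ratios of 0.57 and 0.36 in the OE pairs and -0.58 and -0.31 in the ASO pairs. TMEM80, a membrane protein, had log2 ratios of 0.34 and 0.43 after overexpression and -0.44 and -0.29 after knockdown. MED28, a subunit of the Mediator complex of transcription, had 0.38 and 0.44 after overexpression and -0.48 and -0.52 after knockdown. IFI30, the interferon-inducible lysosomal thiol reductase, had 348 and 384 FPKM in OE-PURPL, against 277 and 264 FPKM in PCDNA, and 47.9 and 47.8 FPKM in ASO-PURPL, against 59.8 and 59.5 FPKM in ASO-NC, with no overlap in either arm. It was the most abundant of the 12. RAET1G, a ligand of the immune receptor NKG2D, had ratios of 0.45 and 0.31 in the OE pairs and -0.54 and -0.75 in the ASO pairs, with levels of only 1.99 and 1.26 FPKM in ASO-PURPL and 3.35 and 2.8 FPKM in ASO-NC.

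Among the counter-direction genes ERBIN, a scaffold protein that binds the receptor ERBB2, had 19.9 and 23.6 FPKM in OE-PURPL, against 30.7 and 41.9 FPKM in PCDNA, and 56.6 and 33.7 FPKM in ASO-PURPL, against 44.5 and 25.9 FPKM in ASO-NC. The OE-PURPL libraries lay below both PCDNA libraries, and the difference was -1.05 (SE 0.14). MRTFB, a coactivator of serum response factor, had 4.41 and 2.72 FPKM in OE-PURPL, against 5.84 and 4.68 FPKM in PCDNA, and 8.8 and 8.94 FPKM in ASO-PURPL, against 4.61 and 3.4 FPKM in ASO-NC. It had the largest difference of the 12, -1.47 (SE 0.279), with no overlap in either arm. NOL8, a nucleolar protein, had 9.88 and 10.2 FPKM in OE-PURPL, against 12.1 and 14.7 FPKM in PCDNA, and 16.1 and 15.7 FPKM in ASO-PURPL, against 10.3 and 9.39 FPKM in ASO-NC, also without overlap in either arm, and a difference of -1.02 (SE 0.165).

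ITSN2, an endocytic scaffold, had log2 ratios of -0.30 and -0.49 after overexpression and 0.73 and 0.34 after knockdown. VPS13C, a lipid-transfer protein, had ratios of -0.31 and -0.91 in the OE pairs and 0.26 and 0.40 in the ASO pairs. CCDC88A, an actin-binding protein also called girdin, had log2 ratios of -0.29 and -0.68 after overexpression and 0.28 and 0.26 after knockdown. CSPP1, a protein of centrosomes and cilia, had ratios of -0.30 and -0.46 in the OE pairs and 0.78 and 0.45 in the ASO pairs. PBRM1, a subunit of the PBAF chromatin remodeller, had 9.76 and 9.49 FPKM in OE-PURPL, against 12.2 and 11.9 FPKM in PCDNA, and 11.3 and 11.5 FPKM in ASO-PURPL, against 9.18 and 8.41 FPKM in ASO-NC, with no overlap in either arm. MKX, a homeobox factor of tendon cells, had log2 ratios of -0.45 and -0.33 after overexpression and 0.44 and 0.27 after knockdown. MOB1B, an adaptor of the Hippo kinases LATS1 and LATS2, had ratios of -0.33 and -0.73 in the OE pairs and 0.29 and 0.27 in the ASO pairs. PIGL, an enzyme of GPI-anchor synthesis, had log2 ratios of -0.34 and -0.27 after overexpression and 0.35 and 0.70 after knockdown. TMA16, a protein of ribosome assembly known from yeast, had ratios of -0.29 and -0.35 in the OE pairs and 0.45 and 0.28 in the ASO pairs.

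**Figure D3:**
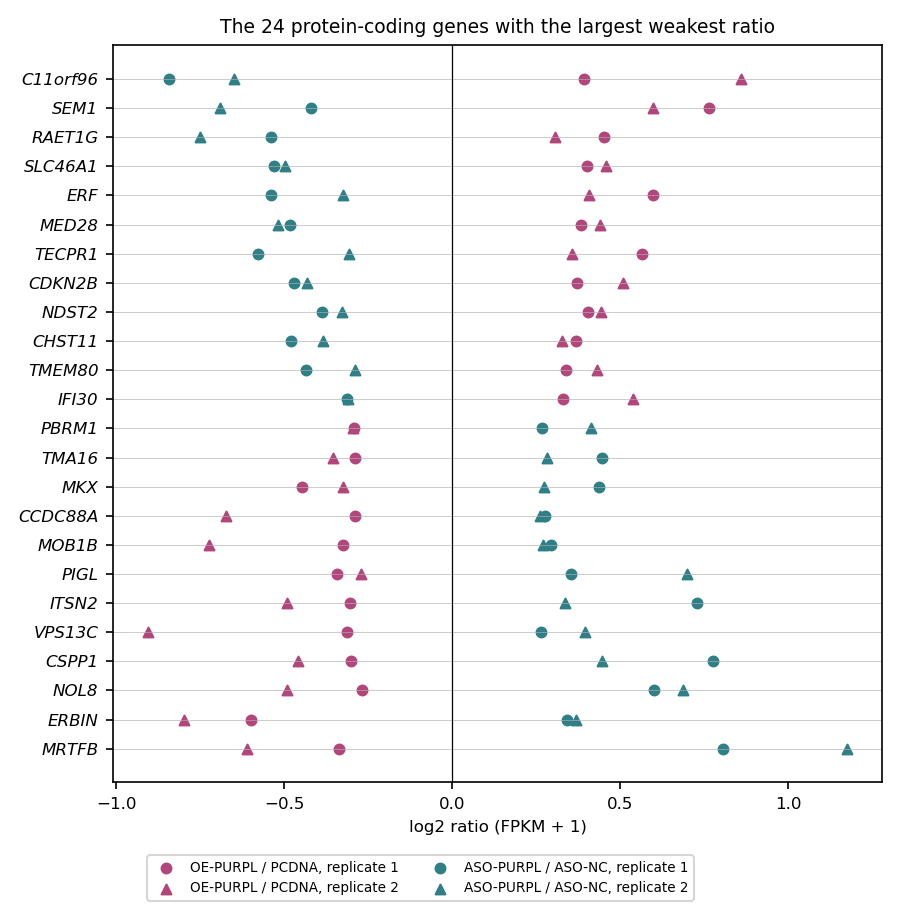
The 4 log2 ratios of FPKM plus 1 for the 24 protein-coding genes with the largest weakest ratio, as circles (replicate 1) and triangles (replicate 2) for OE-PURPL over PCDNA (pink) and ASO-PURPL over ASO-NC (green). The upper 12 lie right of 0 after overexpression and left of 0 after knockdown, the lower 12 the other way, with differences from 1.37 to -1.47.

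Members differed from the tested genes in transcript length and base composition, and so did genes that lay one way in all 4 ratios. PURPL-direction genes had longest transcripts with a median of 2745 bases and 57.3% GC, and counter-direction genes of 5084 bases and 41.7% GC, against 3560 bases and 48.8% GC over all tested genes with an annotated transcript (9051 of 9453). The genes higher in all 4 ratios had medians of 2724 bases and 54.2% GC, and the genes lower in all 4 had 4449 bases and 43.9% GC, close to the medians of the PURPL-direction and counter-direction genes. In 4 equal groups of genes from low to high GC content, PURPL-direction genes made up 3.84%, 7.38%, 18.2% and 33.4%, and counter-direction genes 12.5%, 7.03%, 2.65% and 0.84%. In 4 equal groups from short to long transcripts the shares were 21.9%, 21.0%, 13.6% and 6.45% for PURPL-direction genes and 1.5%, 3.18%, 7.47% and 10.8% for counter-direction genes. The mean level differed as well, with medians of 27.8 FPKM for PURPL-direction genes, 12.5 FPKM for counter-direction genes and 18.4 FPKM for all genes tested.

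**Figure D4:**
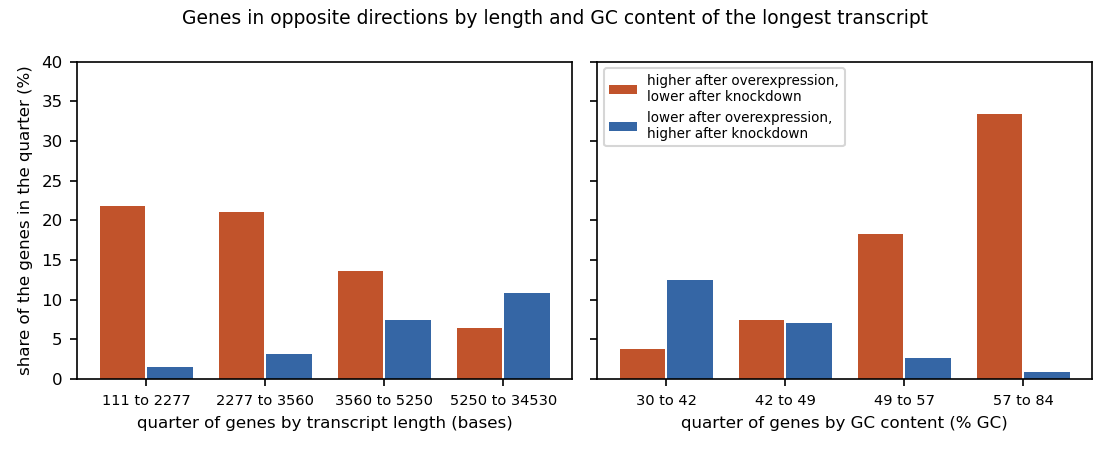
Share of genes (percent) that were PURPL-direction (orange) or counter-direction (blue) in 4 equal groups of the tested genes by length (left, bases) and GC content (right, percent) of the longest transcript. The orange share is 3.84% in the group of lowest GC content and 33.4% in that of highest, and the blue share 12.5% and 0.84%.

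The separate ratios carried this trend unequally. Over 9051 genes the Spearman correlation with GC content was 0.53 and 0.42 for the overexpression ratios of replicates 1 and 2, and -0.06 and -0.19 for the knockdown ratios. With length it was -0.40 and -0.45 for overexpression, and -0.22 and 0.29 for knockdown, so the 2 knockdown pairs ran opposite ways with length. These are descriptions over genes that share libraries. When a smooth trend with length and GC content was removed from each ratio, 1575 genes lay in opposite directions, 1223 with PURPL and 352 counter to it. Of the 2026 reported genes 1943 had a length and GC content, and 948 of these 1943 kept their pattern. What produced the trend was not tested.

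Immediate early genes, which growth factors and stress induce within minutes, lay near the shares over all genes tested. Of 27 tested immediate early genes 6 were PURPL-direction (22.2%) and 1 counter-direction (3.7%), against 15.7% and 5.73% over all genes tested, with a median difference of 0.12 that turned negative after quantile normalization. JUND, a subunit of the AP-1 factor, had 142 and 87.2 FPKM in OE-PURPL, against 88.5 and 72.5 FPKM in PCDNA, and 48.2 and 87.7 FPKM in ASO-PURPL, against 53.4 and 97.9 FPKM in ASO-NC, and its groups overlapped in both arms, although each treated library stood on the stated side of its own control. JUND and IER5, an early gene that acts on heat shock factor, were the 2 with the largest weakest ratios, and IER5 had log2 ratios of 0.45 and 0.57 after overexpression and -0.09 and -0.30 after knockdown. The ERK feedback list had 4 PURPL-direction and 0 counter-direction genes of 15 (26.7% PURPL-direction) and a median of 0.20, which stayed positive under both scaling alternatives. ETV4, an ETS factor induced by ERK, had ratios of 0.09 and 0.49 in the OE pairs and -0.11 and -0.13 in the ASO pairs. DUSP7, a phosphatase of ERK, had log2 ratios of 0.09 and 0.17 after overexpression and -0.30 and -0.14 after knockdown. DUSP2, another MAP kinase phosphatase, had a difference of 0.30 that became -0.04 when the length and GC trend was removed. In TGF-beta signalling TGFBR1, the type I receptor, ran counter to PURPL with 6.42 and 6.65 FPKM in OE-PURPL, against 11.6 and 10.3 FPKM in PCDNA, and 7.27 and 9.06 FPKM in ASO-PURPL, against 6.75 and 8.28 FPKM in ASO-NC, and its groups overlapped in knockdown alone. BAMBI, a decoy receptor, ran with it at ratios of 0.74 and 0.16 in the OE pairs and -0.64 and -0.09 in the ASO pairs. That list had 5 and 2 members in the 2 directions of 31 and a median of 0.12.

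Inflammatory and secreted genes lay on both sides. Of 45 senescence-associated secretory factors 7 were PURPL-direction (15.6%) and 5 counter-direction (11.1%), against 15.7% and 5.73% over all genes tested, with a median difference of 0.04 that turned negative under both scaling alternatives. NRG1, a ligand of the ERBB receptors, had 18.4 and 24.5 FPKM in OE-PURPL, against 27.5 and 36.2 FPKM in PCDNA, and 28 and 29.3 FPKM in ASO-PURPL, against 23.9 and 24.9 FPKM in ASO-NC. Its groups overlapped in neither arm, and the difference was -0.77 (SE 0.129, adjusted p = 0.266, limma). IL1A, the upstream cytokine of the senescence secretome, had 3.08 and 3.54 FPKM in OE-PURPL, against 3.74 and 4.6 FPKM in PCDNA, and 11.1 and 11 FPKM in ASO-PURPL, against 5.15 and 7.02 FPKM in ASO-NC, without overlap in either arm and with a difference of -1.04 (SE 0.258). MMP10, a stromelysin, ran with PURPL at log2 ratios of 0.17 and 0.48 after overexpression and -0.39 and -0.56 after knockdown. SERPINB2, a plasminogen activator inhibitor, did so at ratios of 0.13 and 0.52 in the OE pairs and -0.13 and -0.21 in the ASO pairs.

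NF-kB targets had 4 PURPL-direction (12.9%) and 2 counter-direction genes (6.45%) of 31, against 15.7% and 5.73% over all genes tested. Their median of -0.04 took the other sign in 4 alternatives. More of them, 10 of the 31, were higher in all 4 ratios, a pattern of 4.29% of all genes tested. CXCL1 was one of these, with 0.28 and 0.38 after overexpression and 0.59 and 0.67 after knockdown. NFKBIZ, a nuclear regulator of NF-kB, had log2 ratios of 0.11 and 0.25 after overexpression and -0.36 and -0.29 after knockdown. BIRC2, an inhibitor of apoptosis, had ratios of -0.21 and -0.27 in the OE pairs and 0.44 and 0.10 in the ASO pairs. Interferon-stimulated genes had 7 and 5 of 57 (12.3% and 8.77%) and a median of 0.01, which turned negative under both scaling alternatives. UBE2L6, the conjugating enzyme of ISG15, had 329 and 328 FPKM in OE-PURPL, against 289 and 265 FPKM in PCDNA, and 24.3 and 19.9 FPKM in ASO-PURPL, against 28.4 and 27.3 FPKM in ASO-NC, with no overlap in either arm. DDX58, which encodes the RNA sensor RIG-I, ran counter to PURPL with log2 ratios of -0.30 and -0.23 after overexpression and 0.36 and 0.13 after knockdown. Its knockdown ratios rest on 5.44 and 6.44 FPKM in ASO-PURPL, against 4.02 and 5.78 FPKM in ASO-NC, while PCDNA had 141 and 151 FPKM. USP18, a PURPL-direction gene of the list, had 91.2 and 89 FPKM in PCDNA and 4.51 and 4.1 FPKM in ASO-NC. It thus reached the level filter through the overexpression arm. All 3 genes stood far higher in the overexpression arm than in the knockdown arm, and the part of that gap in the ratios and in the list's counts was not tested.

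More matrix genes were PURPL-direction than counter-direction, as was so over all genes tested (15.7% and 5.73%). Of 42 tested collagens and collagen-processing genes 14 were PURPL-direction (33.3%, against 15.7% over all genes tested) and 1 counter-direction, with a median difference of 0.20 that stayed positive under both scaling alternatives and was 0.12 without the length and GC trend. Another 4 of the 42 were lower in all 4 ratios, a pattern of 10.4% of all genes tested. COL1A1 had 523 and 414 FPKM in OE-PURPL, against 554 and 540 FPKM in PCDNA. It had 716 and 844 FPKM in ASO-PURPL, against 925 and 989 FPKM in ASO-NC, so it was lower in all 4 pairs. COL3A1 was also lower in all 4 pairs, whereas COL1A2 was PURPL-direction. The list's transcripts were GC-rich, at a median of 57.5%. P3H4, a component of the collagen prolyl-hydroxylation complex, had 35.7 and 32 FPKM in OE-PURPL, against 28.4 and 29.3 FPKM in PCDNA, and 41.4 and 38.8 FPKM in ASO-PURPL, against 52.2 and 47.9 FPKM in ASO-NC, with no overlap in either arm. BMP1, the procollagen C-proteinase, had ratios of 0.35 and 0.23 in the OE pairs and -0.34 and -0.10 in the ASO pairs. P4HA3, a prolyl 4-hydroxylase subunit, had log2 ratios of 0.14 and 0.12 after overexpression and -0.19 and -0.31 after knockdown. COL8A2, a short-chain collagen, had ratios of 0.20 and 0.23 in the OE pairs and -0.19 and -0.19 in the ASO pairs. Contractile and YAP/TEAD genes had 3 members each way of 44 (6.82%). CNN1, calponin, had 7.93 and 8.52 FPKM in OE-PURPL, against 6.41 and 6.78 FPKM in PCDNA, and 9.78 and 8.92 FPKM in ASO-PURPL, against 13.3 and 13.3 FPKM in ASO-NC, with no overlap in either arm. CALD1, caldesmon, ran counter to PURPL at log2 ratios of -0.14 and -0.02 after overexpression and 0.31 and 0.34 after knockdown. The fibroblast marker list held 4 PURPL-direction (20%) and 0 counter-direction genes of 20, against 15.7% and 5.73% over all genes tested. More of its genes, 6 of the 20, were lower in all 4 ratios, against 10.4% of all genes tested. The list's median of 0.05 turned negative under both scaling alternatives.

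Stress and secretory-pathway lists held PURPL-direction genes and no counter-direction gene in the ratios as measured, against 5.73% counter-direction over all genes tested. ATF4 targets, the integrated stress response, had 12 of 46 (26.1%, against 15.7% over all genes tested) with a median of 0.14 that was just below 0 after quantile normalization. A further 7 of the 46 were higher in all 4 ratios, a pattern of 4.29% of all genes tested. ATF4 itself, the factor that drives these genes, was one of them, with 0.30 and 0.40 after overexpression and 0.32 and 0.08 after knockdown. ATF3, a stress-induced repressor, was another, with 0.28 and 0.36 after overexpression and 0.25 and 0.23 after knockdown. SLC1A5, a glutamine transporter, had 138 and 118 FPKM in OE-PURPL, against 109.8 and 99.3 FPKM in PCDNA, and 90.6 and 96.4 FPKM in ASO-PURPL, against 104 and 115 FPKM in ASO-NC, with no overlap in either arm. PHGDH, the first enzyme of serine synthesis, had ratios of 0.27 and 0.15 in the OE pairs and -0.37 and -0.41 in the ASO pairs. CHAC1, a glutathione-degrading enzyme, had log2 ratios of 0.29 and 0.35 after overexpression and -0.19 and -0.15 after knockdown. SLC6A9, a glycine transporter, had ratios of 0.19 and 0.33 in the OE pairs and -0.70 and -0.32 in the ASO pairs. Heat shock genes had 12 of 34 (35.3%, against 15.7% over all genes tested) and a median of 0.20, with HSPB8, a small heat shock protein, at log2 ratios of 0.15 and 0.30 after overexpression and -0.21 and -0.33 after knockdown. HSPA1B, an inducible HSP70 gene with a near-identical copy and so uncertain, had ratios of 0.44 and 0.08 in the OE pairs and -0.26 and -0.44 in the ASO pairs. Endoplasmic reticulum chaperones had 11 of 36 (30.6%) and a median of 0.17, with SDF2L1, a partner of the chaperone BiP, at log2 ratios of 0.46 and 0.29 after overexpression and -0.12 and -0.16 after knockdown and DNAJB9, a BiP cochaperone, at ratios of 0.22 and 0.14 in the OE pairs and -0.41 and -0.13 in the ASO pairs. The medians of the heat shock and chaperone lists stayed positive under both scaling alternatives. Within replicates 1 and 2 the median difference was 0.06 and 0.24 for heat shock genes and 0.13 and 0.18 for chaperones. It was 0.07 and 0.16 for ATF4 targets, against 0.03 and 0.13 over all genes tested. With the length and GC trend removed, the ATF4 list had 7 PURPL-direction and 2 counter-direction genes of 36. The heat shock list then had 9 and 0 of 34 and the chaperone list 10 and 0 of 36, against 1223 and 352 of 9051 genes.

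Redox, lysosomal and energy genes had positive median differences, while their knockdown replicates were uneven. NRF2 and antioxidant genes had 11 PURPL-direction (24.4%, against 15.7% over all genes tested) and 0 counter-direction genes of 45 and a median of 0.24, with knockdown medians of 0.03 and -0.15 in replicates 1 and 2. MAFF, a small partner of NRF2, had 117 and 117 FPKM in OE-PURPL, against 86.4 and 79.2 FPKM in PCDNA, and 47.3 and 33.3 FPKM in ASO-PURPL, against 52 and 36.9 FPKM in ASO-NC, with no overlap in overexpression. GPX3, a secreted glutathione peroxidase, had ratios of 0.16 and 0.38 in the OE pairs and -0.29 and -0.39 in the ASO pairs. Lysosome and autophagy genes had 12 (23.5%) and 0 of 51 and a median of 0.21, which was 0.05 in replicate 1 and 0.34 in replicate 2, with SMPD1, acid sphingomyelinase, at log2 ratios of 0.40 and 0.34 after overexpression and -0.27 and -0.10 after knockdown and ATP6AP1, a proton-pump accessory subunit, at ratios of 0.39 and 0.22 in the OE pairs and -0.43 and -0.12 in the ASO pairs. Glycolysis and hypoxia genes had 8 and 2 of 37 (21.6% and 5.41%), knockdown medians of 0.03 and -0.13 and a median difference of 0.22, with PFKP, a phosphofructokinase, at log2 ratios of 0.26 and 0.20 after overexpression and -0.30 and -0.18 after knockdown. Nuclear genes of oxidative phosphorylation had a median of 0.22, with knockdown medians of 0.10 and -0.12. Of 79 such genes 9 were PURPL-direction (11.4%) and 0 counter-direction, against 15.7% and 5.73% over all genes tested. NDUFS6, a complex I subunit, had 97.4 and 101 FPKM in OE-PURPL, against 71.4 and 84.3 FPKM in PCDNA, and 232 and 79.97 FPKM in ASO-PURPL, against 276 and 100.1 FPKM in ASO-NC. The medians of these 4 lists stayed positive under both scaling alternatives. With the length and GC trend removed they were 0.14 for NRF2 genes, 0.14 for lysosome genes, 0.11 for glycolysis genes and 0.24 for oxidative phosphorylation genes. In the same order, PURPL-direction and counter-direction genes then numbered 6 and 0 of 44, 7 and 0 of 51, 7 and 1 of 37, and 21 and 1 of 79. Over all genes in that fit they numbered 1223 and 352 of 9051.

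Some gene families had no member in opposite directions in the ratios as measured. Of 79 cytosolic ribosomal protein genes and of 15 mitochondrially encoded genes, 0 were, against 15.7% PURPL-direction and 5.73% counter-direction over all genes tested. With the length and GC trend removed, 3 ribosomal protein genes were PURPL-direction and 1 counter-direction. Of the mitochondrial genes 2 were then PURPL-direction and 0 counter-direction. The ribosomal protein medians were 0.10 and 0.28 after overexpression and 0.22 and -0.11 after knockdown, so the knockdown replicates disagreed in sign, and the median difference of 0.13 turned negative after quantile normalization. For the mitochondrial genes the knockdown medians were 0.18 and -0.12. Fatty acid synthesis had 4 PURPL-direction and 3 counter-direction genes of 21, with the desaturase FADS2 at ratios of 0.23 and 0.18 in the OE pairs and -0.24 and -0.28 in the ASO pairs and the acyl-CoA synthetase ACSL4 at log2 ratios of -0.50 and -0.24 after overexpression and 0.13 and 0.13 after knockdown, and its median of 0.05 turned negative under both scaling alternatives. FADS2 had 78.2 and 71.5 FPKM in OE-PURPL, against 66.8 and 63 FPKM in PCDNA, and 98.8 and 94.9 FPKM in ASO-PURPL, against 117 and 115 FPKM in ASO-NC, with no overlap in either arm.

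**Figure D5:**
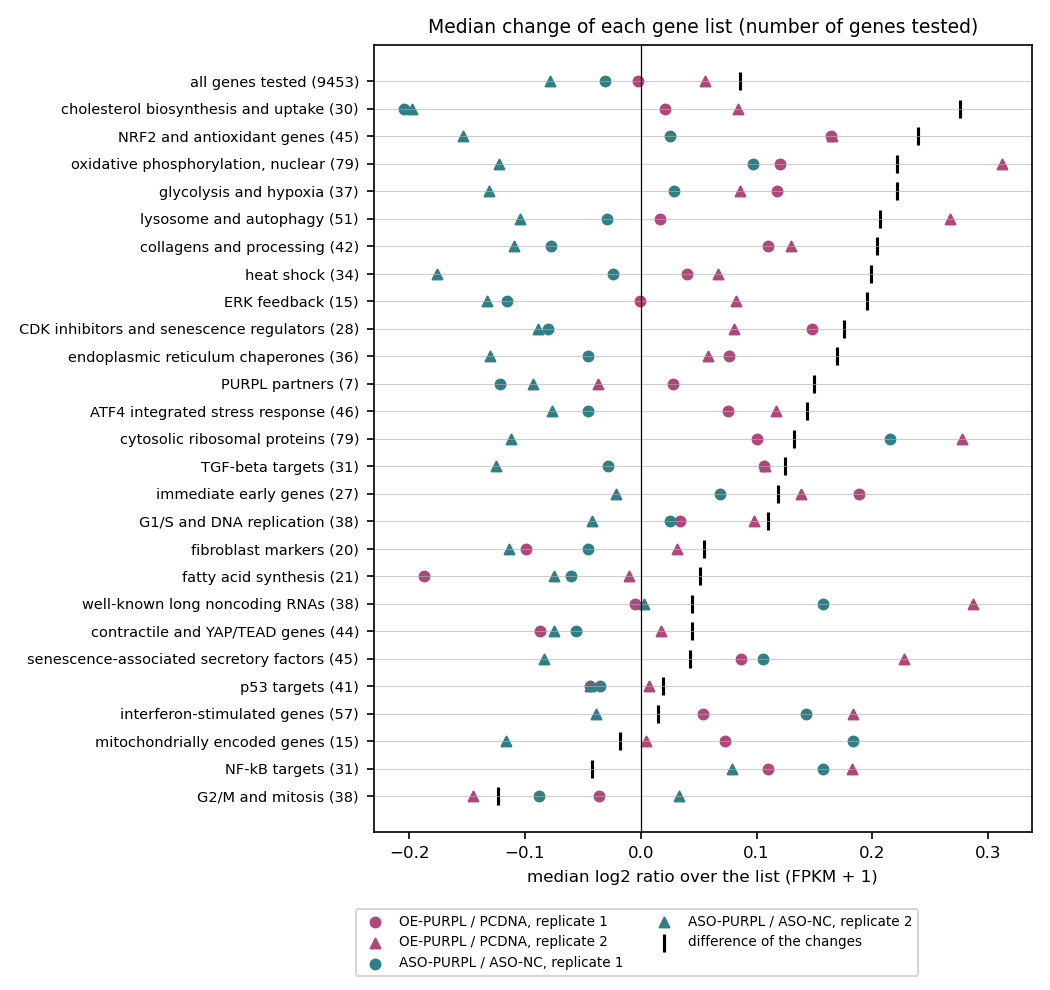
Median log2 ratio of each gene list in the 4 pairs (pink for OE-PURPL over PCDNA, green for ASO-PURPL over ASO-NC, circles for replicate 1, triangles for replicate 2) and median difference of the changes (black bar), with the number of genes tested. All genes tested lie at 0.09 and cholesterol genes at 0.28, while the differences of the p53, interferon, secretory, contractile, fibroblast, fatty acid and noncoding RNA lists turn negative under both scaling alternatives, and those of the immediate early, ATF4 and ribosomal lists after quantile normalization.

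Of 38 tested long noncoding RNAs 4 were PURPL-direction, PURPL included (10.5%), and 2 counter-direction (5.26%), against 15.7% and 5.73% over all genes tested, with a median difference of 0.04 that turned negative under both scaling alternatives. With the length and GC trend removed it was 0.01. For the other lists whose median moved by over 1.5 times in that way it was -0.03 for p53 targets, 0.05 for G1/S genes, 0.14 for fatty acid synthesis, 0.01 for secretory factors, 0.12 for interferon-stimulated genes, 0.20 for TGF-beta genes, -0.0011 for NF-kB targets, 0.03 for mitochondrially encoded genes and 0.08 for ribosomal proteins. For the 4 tested keratinocyte markers the median was then 0.25, against 0.45 as measured. MEG3, an imprinted noncoding RNA, had ratios of 0.08 and 0.47 in the OE pairs and -0.06 and -0.04 in the ASO pairs. MIR31HG, the host of a microRNA near the INK4 locus, had log2 ratios of 0.04 and 0.06 after overexpression and -0.20 and -0.02 after knockdown. SNHG14, a long imprinted transcript that hosts small nucleolar RNAs, ran counter to PURPL at ratios of -0.08 and -0.34 in the OE pairs and 0.69 and 0.09 in the ASO pairs. KRT10, a keratin of suprabasal skin, was the PURPL-direction gene among 4 tested keratinocyte markers, with 9.77 and 9.03 FPKM in OE-PURPL, against 7.44 and 7.63 FPKM in PCDNA, and 27.1 and 8.51 FPKM in ASO-PURPL, against 35.3 and 9.89 FPKM in ASO-NC. Its ASO groups overlapped, and the 16 keratinocyte markers summed to 125 to 133 FPKM in OE-PURPL, 109 to 121 FPKM in PCDNA, 106 to 131 FPKM in ASO-PURPL and 111 to 144 FPKM in ASO-NC. Their part in these results was not tested.

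The 6 largest differences of any kind in each direction were mostly those of pseudogenes, small structural RNAs and names that the annotation does not hold, whose levels are uncertain. AC007881.4 had 35.9 and 29.9 FPKM in OE-PURPL, against 0.01 and 0 FPKM in PCDNA, and 0.01 and 28.3 FPKM in ASO-PURPL, against 19.9 and 82.6 FPKM in ASO-NC, with a difference of 8.01 (SE 0.831, adjusted p = 0.134, limma). RN7SK, the small nuclear RNA that holds the elongation factor P-TEFb inactive and has many copies, had 30.3 and 5.72 FPKM in OE-PURPL, against 35.2 and 179 FPKM in PCDNA, and 288 and 79.5 FPKM in ASO-PURPL, against 165 and 1.2 FPKM in ASO-NC, with a difference of -5.48 (SE 1.79). Within the replicate numbers that difference was -1.02 and -9.94, so replicate 2 set most of it. MLLT10, a chromatin cofactor, had 8.61 and 9.45 FPKM in OE-PURPL, against 8.96 and 146 FPKM in PCDNA, and 9.57 and 7.11 FPKM in ASO-PURPL, against 7.26 and 5.69 FPKM in ASO-NC. Its mean difference of -2.25 rested on PCDNA replicate 2, and it was -0.37 without that pair. HMGN2P5, a pseudogene, had log2 ratios of 1.38 and 0.94 after overexpression and -0.12 and -1.06 after knockdown. RN7SL4P, a pseudogene of the signal recognition particle RNA, had ratios of 0.44 and 1.5 in the OE pairs and -0.94 and -0.51 in the ASO pairs. THBS1-AS1, antisense to the thrombospondin gene THBS1, had 6.29 and 5.98 FPKM in OE-PURPL, against 13.8 and 16.6 FPKM in PCDNA, and 13.6 and 16 FPKM in ASO-PURPL, against 13.2 and 8.58 FPKM in ASO-NC, and strand use in counting is not given in the sources. CTB-63M22.1, which the annotation does not hold, had log2 ratios of 0.71 and 1.55 after overexpression and -2.12 and -0.55 after knockdown. The pseudogene HMGN1P3 had ratios of -0.85 and -2.21 in the OE pairs and 0.41 and 3.45 in the ASO pairs. STAG2, a cohesin subunit, had log2 ratios of -0.78 and -0.03 after overexpression and 1.32 and 0.95 after knockdown. Its overexpression ratio of replicate 2 was close to 0.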

How the data were processed

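Per the labels' protocols, RNA from BJ cells was extracted with TriZol and sequenced after library preparation with an mRNA kit. Per the submitters' processing notes, STAR, Cufflinks and hg38 were used, while versions, annotation, strand use and read depth are not given in the sources used here, so no counting error is attached to a level. The authors deposited 3 tables of FPKM, a unit inferred from the values and from Cufflinks. For replicate 1 the overexpression and the knockdown pair have a table each, with values no lower than 0.01, and replicate 2 of all 4 groups shares the third. The authors also deposited log2 fold changes for replicate 1, which match the ratios computed here within 0.0015.

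Each table held 60635 rows. Of 1264 rows that repeat a name the one with the highest mean was kept, and 1 gene with a text cell was dropped. Tables may have been normalized separately, so ratios were taken within a table, with a pseudocount of 1, which understates changes of low genes. limma 3.58.1 in R 4.3.3 (lmFit, eBayes with a trend) fitted 4 ratios per gene with 2 residual and 4.24 prior degrees of freedom, and p-values were adjusted by Benjamini-Hochberg over 9453 genes. The fit was tested on simulated data. The ratios act as a replicate block that follows the deposited tables: deviations of same-numbered treated and control libraries correlated across genes with r = 0.20 in the overexpression arm and 0.60 in the knockdown arm. GENCODE 29 gave coordinates, length and GC content, and RefSeq gave promoter windows.

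Genes named are PURPL, CDKN2A, CDKN2B and DHCR7, members past the test, the 12 protein-coding members per direction with the largest weakest ratio, the 6 of any kind with the largest difference, and up to 4 members per gene list by weakest ratio. Other list members are named as background to these, after their values were seen. The members and the 29 lists were chosen with earlier results of these data known. Alternatives changed the pseudocount, the level filter, the scaling, the length and GC trend, the spread model, the replicates, the block and repeated names.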

Additional observations from a re-analysis of the deposited data

Results flagged for a closer look

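For 3 genes the change after overexpression differed from the change after knockdown by the limma test of that difference. PURPL, the manipulated gene, differed by 6.0 on the log2 scale. CH17-13I23.3 differed by 7.61, with values at or near 0 in both PCDNA and both ASO-PURPL libraries. CTB-79E8.3 differed by 3.17, and was higher than its control in both arms, with values at or near 0 in both PCDNA libraries.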

How the results depend on the processing

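The number of genes past the test, 3 as reported, was 0 with no level filter (33058 genes, 2863 at an unadjusted p under 0.05, limma) and 1, PURPL, with the length and GC trend removed, where CH17-13I23.3 and CTB-79E8.3, which have no annotated length, were not tested. It ran from 10 to 28 when an OE-PURPL or ASO-PURPL replicate and its control were left out, the 3 reported genes among those called each time. The number of genes in opposite directions, 2026 as reported, was 3764 with no filter and ran from 2795 to 4118 with a replicate left out, where 3 signs in place of 4 had to fit by construction. The PURPL difference stayed at 6.0 with no filter but was no longer called (adjusted p = 0.557, limma). DUSP2 turned to -0.035 with the length and GC trend removed. Without the replicate block 2 genes were called, PURPL and CH17-13I23.3, and 286 genes had an unadjusted p under 0.05 (limma), against 1495 with it; CDKN2A, CDKN2B and DHCR7 were not called in either fit. CTB-79E8.3 was not called in 7 alternatives. Of 1828 comparisons of 124 named genes with an alternative, 8 lost the call, 6 gained it and 1 reversed. Most of these genes were not called and were chosen by their weakest ratio, and most alternatives cannot turn a sign by construction, so the rest say nothing of stability. Of 405 list medians over alternatives, 61 moved beyond their spread. With 2 pairs per arm and unknown depth, differences of the size of most members could not be told from the spread between libraries.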
